A study of Homo sapiens with 8 samples.

Results

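Matrix proteases and their inhibitors were followed in THP-1 foam cells as 10 genes: 4 matrix metalloproteinases (MMP2, MMP9, MMP14 and MMP19), 3 tissue inhibitors of metalloproteinases (TIMP1, TIMP2 and TIMP3) and 3 cell-surface proteases of the ADAM family (ADAM8, ADAM10 and ADAM17). The genes were chosen by name, with earlier results of these data known, and all 10 were found among the 62700 rows of the deposited count table. THP-1 is an established human monocytic leukaemia line. The cells were turned into macrophage-like cells with the phorbol ester PMA at 50 ng/mL for 72 h, loaded with acetylated LDL for 48 h to form foam cells, and given either DMSO below 0.1% or 0.5 µM auranofin (AF), a gold compound used against rheumatoid arthritis. Each group had 4 poly-A RNA sequencing libraries, all from loaded cells, and the labels name the drug as the only difference between the 2 groups. The treatment protocol places the drug 24 h ahead of the lipid load and until the end of the experiment, whereas the design text places it after loading, so the order of drug and lipid is not settled here. Whether the libraries stem from separate cultures is not stated, and library names share a stem between DMSO replicates 1 and 2, DMSO replicates 3 and 4, AF replicates 1 and 2, and AF replicates 3 and 4. A p-value here therefore weighs a difference against the spread among 8 libraries, some of which may be technical repeats.

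Matrix metalloproteinases are zinc-dependent enzymes that cut collagens, laminins and other matrix proteins as well as many secreted and surface proteins. They are made as inactive precursors, and TIMPs block the active enzymes by binding their catalytic site. ADAM proteases sit in the cell membrane and release the outer parts of cytokines, growth factors and receptors from the cell surface, ADAM17 (the TNF-converting enzyme) and ADAM10 being the main examples, and TIMP3 is the TIMP known for inhibiting ADAM17. In atherosclerotic plaques, macrophage foam cells are a known source of these proteases, and matrix breakdown is tied to plaque rupture.

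The libraries held between 19336073 and 32325981 counts, of which the 10 genes took 0.156% to 0.257%. AF replicate 1 stood apart, with 34.8% of its counts in ribosomal RNA entries (0.743% to 0.963% elsewhere) and 58.3% in protein-coding genes (89.5% to 89.9% elsewhere). Its scaling factor was 0.679, against 1.04 to 1.08 elsewhere, so its values rest on that correction. All 14 macrophage markers were tested, with a summed level of 6362 to 7193 CPM (counts scaled to library size) in DMSO and 5930 to 6448 in AF, and 3 were called higher and 4 lower with AF. Markers of other cell types were low in both groups: the 10 fibroblast and smooth muscle genes summed to 2.68 to 3.61 CPM in DMSO and 2.11 to 3.18 in AF with COL1A2 and LUM at 0, and the 6 epithelial genes to 0.192 to 0.547 and 0.039 to 0.228 with EPCAM, KRT5, KRT14 and KRT19 at 0. The 6 endothelial genes summed to 47.0 to 55.4 and 38.1 to 52.6 CPM, most of it EGFL7 with CLDN5 at 0 in every DMSO library, and the 8 lymphocyte genes to 19.8 to 24.2 and 14.97 to 19.1, most of it NKG7 with MS4A1 at 0. The part of these markers in the results on the proteases was not tested. In such bulk libraries, fewer cells of a type and less RNA per cell cannot be told apart.

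In AF foam cells 3 proteases were higher than in DMSO foam cells: the gelatinase MMP9 by 33.03%, MMP19 by 36.2% and the sheddase ADAM17 by 14.9%. None of the 3 inhibitors and none of the other 4 proteases passed the test. Genes were called at an adjusted p under 0.05 in edgeR's quasi-likelihood test with Benjamini-Hochberg adjustment over 17535 genes, so 3 of 10 members were called higher and 0 lower (4 higher and 0 lower at an unadjusted p under 0.05, and 3 and 0 with DESeq2). Over all genes tested, 15.4% were called, 7.62% higher and 7.81% lower, and the share was 19.6% among the 11227 genes that averaged 5 CPM or more. The members' median log2 fold change was 0.13, against 0.0050 over all genes. The 10 genes were chosen with earlier results of these data known, so these comparisons are not those of an unselected set. The same 3 members were the ones whose 4 AF values all lay above the 4 DMSO values, a separation found in this direction in 9.86% of the genes tested. The 3 calls were kept when the libraries that share a name stem were summed to 2 sums per group, with adjusted p = 0.00141 for MMP9, 0.0190 for MMP19 and 0.0451 for ADAM17 in edgeR. In both groups the libraries most alike in their counts did not share a stem, so these sums may not join technical repeats. With library totals alone as the scaling, which moved the median of all genes to -0.15, 0 members were called, and the log2 fold changes of MMP9, MMP19 and ADAM17 relative to that median were 0.41, 0.45 and 0.20.

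**Figure D1:**
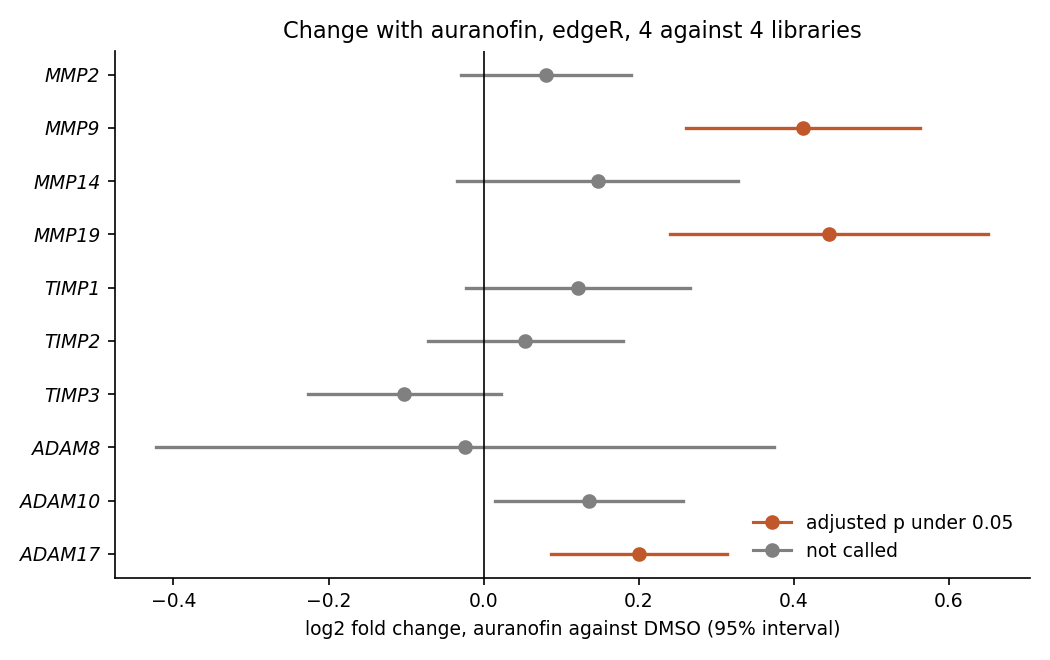
Log2 fold change of each of the 10 genes, AF against DMSO (horizontal axis), with its 95% confidence interval from edgeR. MMP9 (0.41), MMP19 (0.45) and ADAM17 (0.20) lie to the right of 0 and passed the test; with library totals alone as the scaling, MMP2, MMP14, TIMP1, TIMP2 and ADAM10 move from above to below 0.

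Levels were compared between genes per length, as CPM per kilobase of exon, with exons joined over all transcripts of a gene in GENCODE 29. In DMSO foam cells the inhibitor TIMP1 had the highest level of the 10 genes, 211 ± 10.8 CPM per kilobase (SD, n = 4), followed by the membrane-bound collagenase MMP14 at 158 ± 8.20. MMP9 came next at 69.2 ± 3.15, ahead of TIMP2 at 59.4 ± 2.08 and the second gelatinase, MMP2, at 32.8 ± 1.05. TIMP3 stood at 21.4 ± 1.49, ADAM10 at 11.9 ± 0.651 and ADAM17 at 10.8 ± 0.316. MMP19 was low at 2.23 ± 0.178 and ADAM8 lowest at 0.478 ± 0.0616. No 2 neighbours in this order had overlapping ranges in DMSO. ADAM10 and ADAM17 are the closest pair (lowest ADAM10 library 11.3, highest ADAM17 library 11.1), and how close they lie depends on the joined exon lengths, 16168 bases for ADAM10 and 10750 for ADAM17. The order was the same in AF, with 230.0 for TIMP1, 175 for MMP14, 92.1 for MMP9 and 61.6 for TIMP2, but there the ranges of ADAM10 (mean 13.1) and ADAM17 (mean 12.4) overlapped. MMP9 thus stood at 1.17 times the level of TIMP2 per kilobase in DMSO and at 1.49 times in AF. This order too depends on the joined exon lengths, 2336 bases for MMP9 and 5633 for TIMP2. In CPM, TIMP2 was above MMP9 in DMSO (334 against 162) and in AF (347 against 215).

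**Figure D2:**
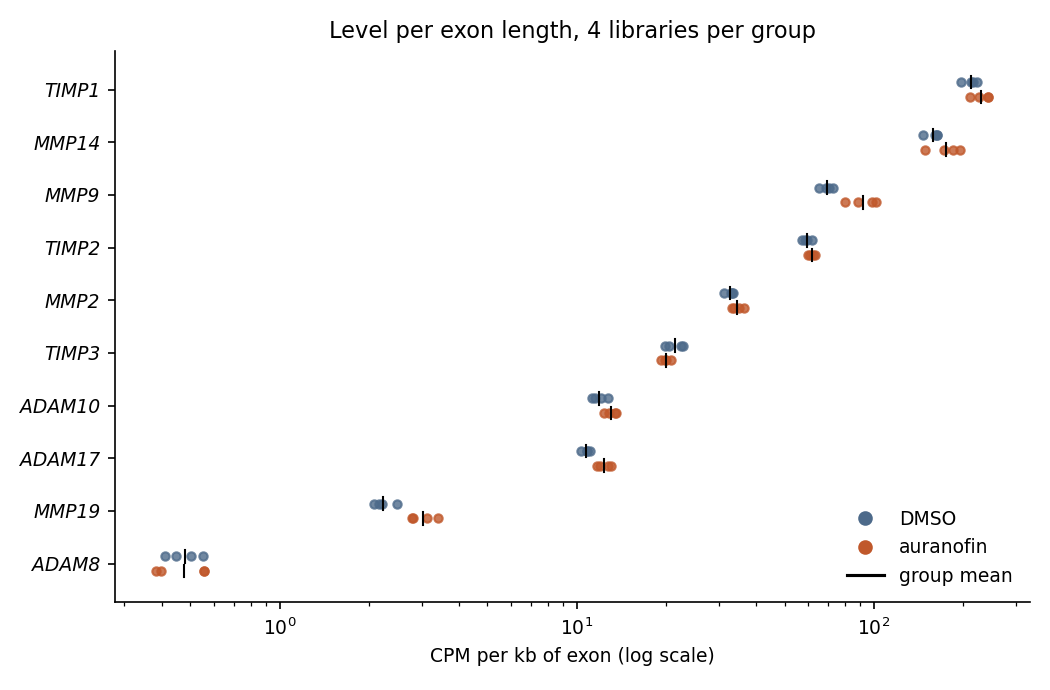
Level of each gene per exon length (horizontal axis, CPM per kilobase of exon, log scale) in the 4 DMSO and the 4 AF libraries, with 1 point per library and a bar at each group mean. TIMP1 and MMP14 lie at the top (211 and 158 in DMSO) and ADAM8 at the bottom (0.478).

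MMP9, the inducible gelatinase that cuts denatured collagens and basement membrane collagen, is encoded on chromosome 20 (ENSG00000100985.7, 46008908 to 46016561 on the plus strand of GRCh38). Its level in DMSO replicates 1 to 4 was 169.5, 164, 161 and 152 CPM, and in AF replicates 1 to 4 it was 207, 238, 229 and 187 CPM. Every AF library lay above every DMSO library, and AF replicates 2 and 3 were the highest. The group means were 162 ± 7.36 and 215 ± 22.9 CPM (SD, n = 4 each), a log2 fold change of 0.41 ± 0.07 (SE, 95% confidence interval 0.26 to 0.56, adjusted p = 0.00134 in edgeR). MMP9 stayed called without any 1 library, with log2 fold changes of 0.36 to 0.47. An antisense gene, SLC12A5-AS1, overlaps 18.4% of the exon bases of MMP9 and had 1 to 9 counts per library, against 3165 to 8013 for MMP9.

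MMP19, a matrix metalloproteinase of broad specificity first described as an autoantigen in rheumatoid arthritis, lies on chromosome 12 (ENSG00000123342.15 in GENCODE 29, 55835433 to 55842966, minus strand). It had 9.72, 10.1, 11.6 and 10.3 CPM in DMSO replicates 1 to 4 and 13.1, 15.9, 14.6 and 12.98 CPM in AF replicates 1 to 4. The groups did not overlap, and the lowest AF library (replicate 4) stood above the highest DMSO library (replicate 3). The log2 fold change was 0.45 ± 0.10 (SE, 95% confidence interval 0.24 to 0.65, adjusted p = 0.00626 in edgeR), on 214 to 536 counts per library. The call was kept without any 1 library, at log2 fold changes of 0.38 to 0.50. The gene TMEM198B runs on the opposite strand over 17.4% of the exon bases of MMP19; it stood at 6.11 ± 1.38 CPM in DMSO and 7.93 ± 1.44 in AF (n = 4 each, log2 fold change 0.38 ± 0.17, adjusted p = 0.142 in edgeR). The libraries are stranded but the strand setting of the counting is not given in the sources used here, so reads of MMP19 and TMEM198B in the shared bases may not be told apart.

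MMP14, the membrane-anchored collagenase that also activates the precursor of MMP2, had the most counts of the 10 genes. It had 718, 729.7, 727 and 652 CPM in DMSO replicates 1 to 4 and 768, 872, 826 and 664 CPM in AF replicates 1 to 4. AF replicates 1 to 3 lay above all DMSO libraries, while AF replicate 4 lay among them. The difference did not pass the test (log2 fold change 0.15 ± 0.09, 95% confidence interval -0.03 to 0.33, adjusted p = 0.268 in edgeR), and it was called when AF replicate 4 was left out (0.22, adjusted p = 0.0467).

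MMP2, the constitutive gelatinase, had 165, 166, 163 and 154 CPM in DMSO replicates 1 to 4 and 174, 180.4, 166 and 164 CPM in AF replicates 1 to 4. AF replicates 1 and 2 were above the DMSO range, AF replicate 3 was level with its top and AF replicate 4 was inside it. Its log2 fold change was 0.08 ± 0.05 (95% confidence interval -0.03 to 0.19, adjusted p = 0.319 in edgeR). The differences of MMP2 and MMP14 turn below 0 with library totals alone.

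**Figure D3:**
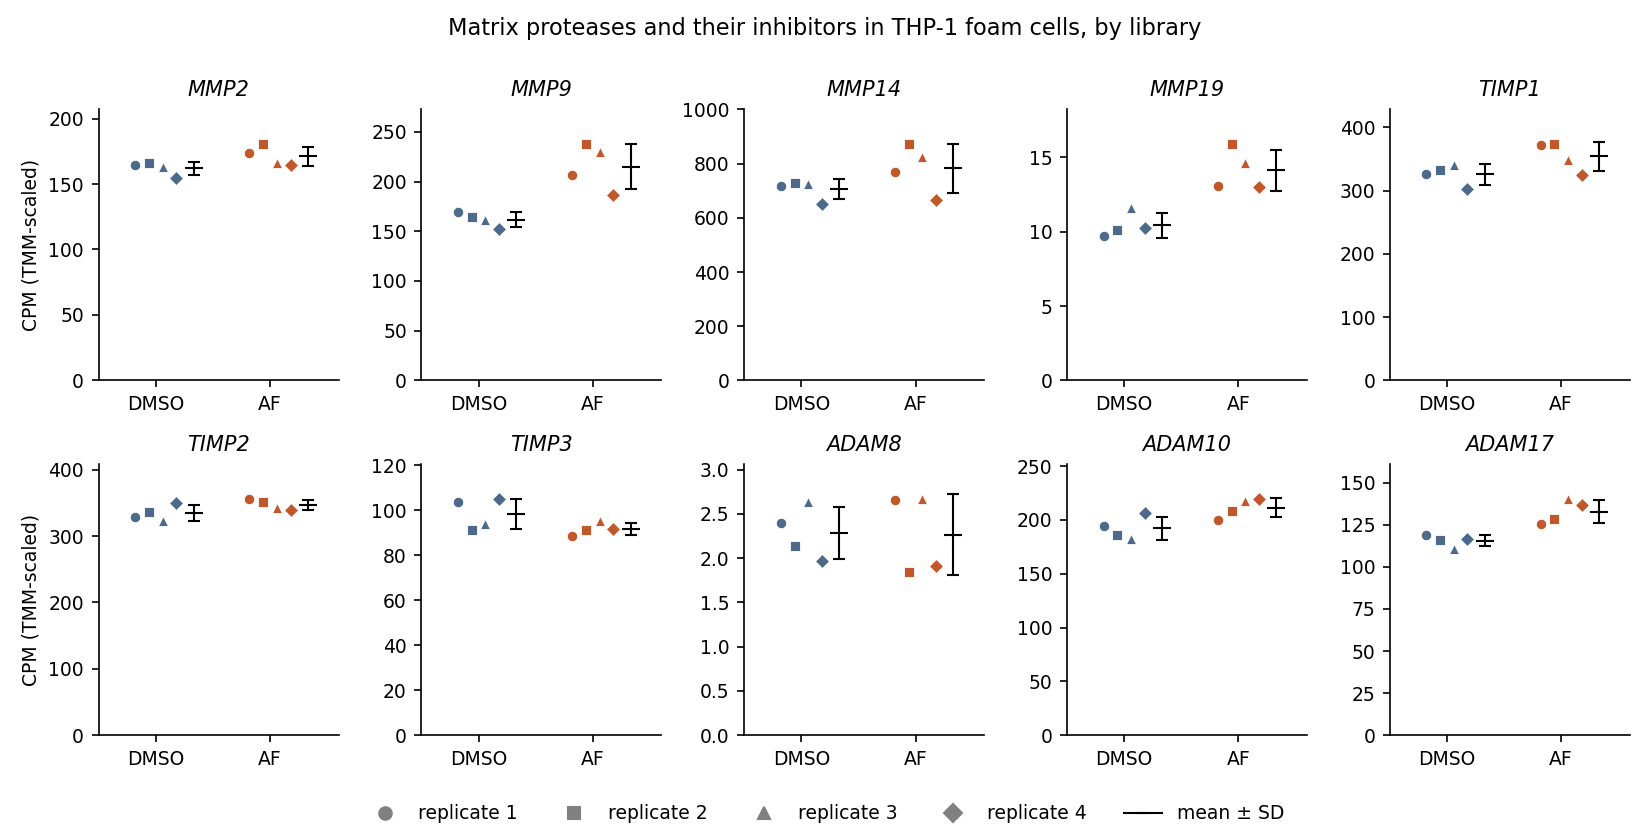
CPM of each gene in the 4 DMSO and 4 AF libraries (vertical axes, CPM, each panel with its own scale), with 1 point per library and the group mean ± SD. The AF points of MMP9 (187 to 238), MMP19 (12.98 to 15.9) and ADAM17 (126 to 140.2) all lie above the DMSO points; in the other 7 panels the groups overlap.

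Among the inhibitors, TIMP1, a secreted inhibitor that also binds the precursor of MMP9, had 326, 333, 341 and 302 CPM in DMSO replicates 1 to 4 and 372, 373, 348 and 324 CPM in AF replicates 1 to 4. AF replicates 1 to 3 lay above the DMSO libraries and AF replicate 4 did not. Its log2 fold change was 0.12 ± 0.07 (95% confidence interval -0.02 to 0.27, adjusted p = 0.246 in edgeR), and it turned to -0.034 with library totals alone. TIMP2, which blocks MMPs and, bound to MMP14, takes part in the activation of MMP2, had 329, 336, 322 and 349.7 CPM in DMSO and 356, 351, 343 and 339 CPM in AF, in replicate order. All AF libraries were above 3 of the DMSO libraries, and DMSO replicate 4 lay among them (log2 fold change 0.05 ± 0.06, adjusted p = 0.584 in edgeR), with a change of sign to -0.10 with library totals alone. TIMP3, the matrix-bound inhibitor of ADAM17 and of several MMPs, had 103, 91.1, 93.8 and 105 CPM in DMSO and 88.5, 91.0, 95.2 and 91.5 CPM in AF. The DMSO libraries fell in a high and a low pair (replicates 1 and 4, and replicates 2 and 3), and the AF libraries lay near the low pair or below it. TIMP3 was the inhibitor with a negative estimate (-0.10 ± 0.06, 95% confidence interval -0.23 to 0.02, adjusted p = 0.259 in edgeR). The upper ends of the 3 intervals, 0.27 for TIMP1, 0.18 for TIMP2 and 0.02 for TIMP3, bound the rise with AF, and the lower ends, -0.02, -0.07 and -0.23, bound the fall.

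ADAM17 releases TNF, TNF receptors and EGF-family growth factors from the cell surface, and its gene lies on chromosome 2 (ENSG00000151694.13 in GENCODE 29, 9488486 to 9556732, minus strand). It had 119, 116, 111 and 117 CPM in DMSO replicates 1 to 4 and 126, 129, 140.2 and 136 CPM in AF replicates 1 to 4. The groups did not overlap; DMSO replicate 3 was the lowest of the 8 libraries and AF replicate 3 the highest. The means were 116 ± 3.40 and 133 ± 6.71 CPM (SD, n = 4 each), and the log2 fold change was 0.20 ± 0.05 (95% confidence interval 0.09 to 0.31, adjusted p = 0.0201 in edgeR). ADAM17 was no longer called by edgeR when DMSO replicate 3 (0.18, adjusted p = 0.0717) or AF replicate 3 (0.17, adjusted p = 0.0885) was left out, and the estimate remained between 0.17 and 0.22 without any 1 library. Genes on the opposite strand overlap 13.6% of its exon bases; of these IAH1 stood at 19.4 ± 1.59 CPM in DMSO and 20.7 ± 1.16 in AF (log2 fold change 0.10 ± 0.09, adjusted p = 0.539 in edgeR).

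ADAM10, the main sheddase of Notch receptors, the amyloid precursor protein and CX3CL1, had 194, 186.5, 182 and 206 CPM in DMSO and 200.1, 208, 218 and 219 CPM in AF. All AF libraries were above 3 of the DMSO libraries, and DMSO replicate 4 was above AF replicate 1. The log2 fold change was 0.14 ± 0.06 (95% confidence interval 0.01 to 0.26); its unadjusted p was 0.0307 and its adjusted p 0.122 in edgeR, so it was not called, and it turned to -0.0078 with library totals alone. ADAM8, a leukocyte ADAM, had 2.39, 2.13, 2.64 and 1.97 CPM in DMSO and 2.65, 1.84, 2.67 and 1.91 CPM in AF. On 41 to 82 counts per library its interval was wide (-0.42 to 0.38), so neither a rise nor a fall within it is excluded.

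The promoter sequences of ADAM17, the called sheddase, and of TIMP3, its inhibitor with a negative estimate, are shown because both genes of this enzyme and inhibitor pair were found in the RefSeq promoter table (GRCh38.p14). The table held 6 of the 10 genes (MMP14, TIMP1, TIMP3, ADAM8, ADAM10 and ADAM17). Each sequence runs 5′ to 3′ on the strand of its gene and was cut so that it holds no exon base of that gene in GENCODE 29. The ADAM17 sequence lies inside the annotated span of the gene, since 1 annotated first exon starts further upstream, at 9556732. Capitals mark GC boxes, the letters GGGCGG or their reverse complement CCGCCC. The ADAM17 sequence is chr2:9555853-9556080 on the minus strand (228 bases, 3 GC boxes) and the TIMP3 sequence is chr22:32801455-32801700 on the plus strand (246 bases, 5 GC boxes).
ADAM17: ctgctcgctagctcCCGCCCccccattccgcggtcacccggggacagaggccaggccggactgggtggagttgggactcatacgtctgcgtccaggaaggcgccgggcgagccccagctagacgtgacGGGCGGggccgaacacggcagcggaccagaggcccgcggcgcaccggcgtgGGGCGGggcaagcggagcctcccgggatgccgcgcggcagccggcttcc
TIMP3: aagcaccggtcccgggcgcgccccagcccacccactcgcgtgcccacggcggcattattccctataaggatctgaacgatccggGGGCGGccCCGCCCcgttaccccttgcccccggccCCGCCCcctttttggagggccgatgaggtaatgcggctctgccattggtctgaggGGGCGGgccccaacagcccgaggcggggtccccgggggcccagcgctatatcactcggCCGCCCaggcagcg
In the 250 bases before the start, searched on both strands, the GC box was found in 6 of the 6 promoters and in 42.6% of the 35116 promoters of the table. The share of G and C bases was 56.8% (MMP14) to 75.6% (ADAM17) in the 6 windows, against a median of 58% over all promoters. Its part in the GC box matches was not tested. The AP-1 letters TGANTCA were in 0 of the 6 and in 6.57% of all, TATAAA in 0 of the 6 and 10.7% of all, and TGACNNNGC, the core of the antioxidant response element, in 0 of the 6 and 10.9% of all. Within the window, the called ADAM17 and the uncalled MMP14, TIMP1, TIMP3, ADAM8 and ADAM10 thus held exact matches to the same 1 of the 4 motifs. Sites that differ from these letters were not counted, such as TGAGTAA in the TIMP1 window, so a motif without a match is not shown to be absent.

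Ratios of counts within a library compare a protease with its inhibitor or activator free of any scaling between libraries. They compare the groups, not the amounts of the proteins, and were not tested. MMP9 to TIMP1 was 0.520, 0.494, 0.471 and 0.503 in DMSO replicates 1 to 4 and 0.556, 0.636, 0.658 and 0.577 in AF replicates 1 to 4. Every AF library lay above every DMSO library, a separation that 2.84% of the genes tested showed in their ratio to TIMP1. MMP19 to TIMP1 had a mean of 0.0320 ± 0.0023 in DMSO and 0.0400 ± 0.0033 in AF (SD, n = 4 each), also with no overlap. Against the other MMPs, MMP9 to MMP14 was 0.229 ± 0.0068 in DMSO and 0.275 ± 0.0055 in AF, and MMP9 to MMP2 was 0.998 ± 0.0208 and 1.26 ± 0.112. The groups of both ratios were separate, as for 2.71% of genes over MMP14 and 4.4% over MMP2.

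For the sheddases, ADAM17 to TIMP3 was 1.149, 1.27, 1.18 and 1.11 in DMSO and 1.42, 1.41, 1.47 and 1.49 in AF. ADAM10 to TIMP3 was 1.96 ± 0.0689 in DMSO and 2.31 ± 0.0605 in AF. Neither ratio overlapped between the groups, but 17.9% of the genes tested had a ratio to TIMP3 that lay above DMSO in every AF library. The other 5 ratios of the 11 computed overlapped: MMP14 to TIMP2 (means 2.12 and 2.25), MMP2 to TIMP2 (0.485 and 0.493), ADAM10 to ADAM17 (1.66 and 1.59), TIMP1 to TIMP3 (3.33 and 3.88) and TIMP1 to TIMP2 (0.976 and 1.02).

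**Figure D4:**
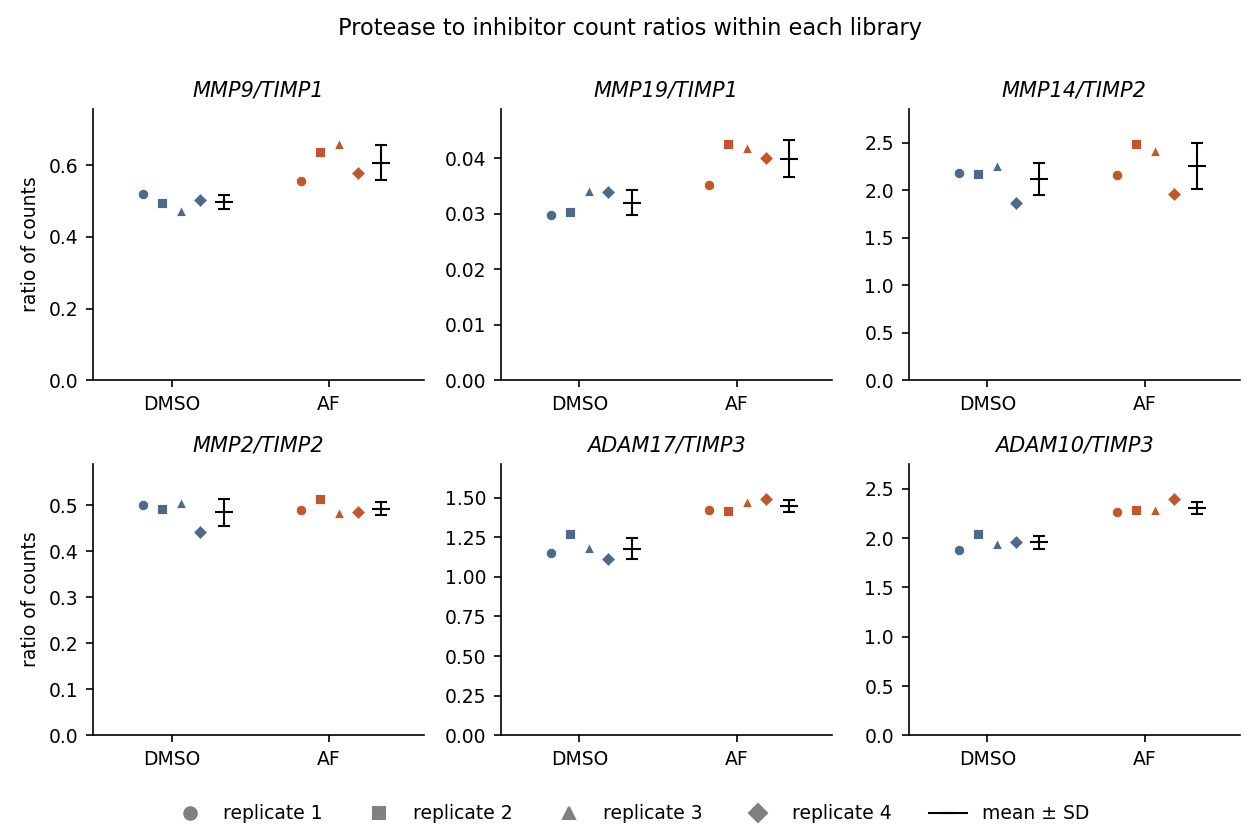
Ratio of counts of 6 protease and inhibitor pairs within each library (vertical axes, ratio of counts, each panel with its own scale), 4 DMSO and 4 AF libraries, with the group mean ± SD. AF lies above DMSO with no overlap in 4 panels, among them MMP9 to TIMP1 (means 0.497 and 0.607) and ADAM17 to TIMP3 (1.18 and 1.45).

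Genes whose pattern over the 8 libraries was nearest to that of MMP9 or MMP19 were sought among 10989 genes by the mean absolute difference of log2 CPM centred on the mean of each gene. Among the nearest to MMP9 were FADS2, a fatty acid desaturase (0.036), and PLCXD1 (0.038). FADS2 stood at 69.3 to 80.05 CPM in the DMSO libraries and 90.3 to 113 in the AF libraries, with AF replicates 2 and 3 highest as for MMP9. Nearest to MMP19 were TTLL4, a tubulin-modifying enzyme (0.044), GSTM3, a glutathione transferase (0.047), and DHCR7, the last enzyme of cholesterol synthesis (0.056). DHCR7 stood at 58.9 to 60.4 CPM in the DMSO libraries and 73.7 to 91.3 in the AF libraries. The genes were picked for likeness over these same 8 libraries, so their rise with AF and the like order of AF libraries follow from the choice. These distances describe the libraries and carry no test.

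Most other matrix metalloproteinases were scarce. Of 16 others, 10 were not tested for low counts, with MMP3 and MMP28 at 0 in every library. Of the 6 tested, 0 were called in either direction by edgeR or DESeq2 with no block. At an unadjusted p under 0.05, 1 was higher and 1 lower, and the median log2 fold change of the 6 was -0.0076. With a block for the replicate number, edgeR called 1 gene of this list. MMP17, a GPI-anchored metalloproteinase and the one with the most counts, was at 8.52, 10.4, 8.85 and 7.93 CPM in DMSO and 8.81, 11.03, 7.90 and 7.99 in AF. Its groups overlapped widely (log2 fold change 0.0052 ± 0.12, adjusted p = 0.985 in edgeR).

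Of 10 other ADAM proteases, 5 were tested and 1 was called higher and 1 lower, where 15.4% of all genes tested were called. ADAMDEC1, a secreted ADAM-like protease of macrophages, fell from 598 ± 11.5 CPM in DMSO to 458 ± 38.9 in AF (log2 fold change -0.39 ± 0.07, adjusted p = 0.00228 in edgeR), and every AF library (421 to 513) was below every DMSO library (581 to 607). ADAM28, a lymphocyte and macrophage ADAM, was called higher at 0.20 ± 0.06 (adjusted p = 0.0373 in edgeR), but not without DMSO replicate 1, 2 or 4 or AF replicate 2 or 3 (adjusted p = 0.053 to 0.111). Of 15 ADAMTS proteases, secreted relatives with thrombospondin repeats, 11 were tested, with 0 called higher (1 at an unadjusted p under 0.05, and 0 by DESeq2) and 2 lower. ADAMTS17 fell from 12.1, 9.70, 11.8 and 9.94 CPM in DMSO to 4.41, 4.24, 3.84 and 5.03 in AF (-1.32 ± 0.12, adjusted p = 7.8e-06 in edgeR). ADAMTS12 fell at a low level, from 1.18 to 0.441 CPM (-1.48 ± 0.35, adjusted p = 0.0102 in edgeR). The 11 ADAMTS genes had a median log2 fold change of 0.055 all the same.

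Besides the TIMPs, 7 inhibitors were listed and 3 tested, with 0 called in either direction by edgeR; 0 were higher and 1 lower at an unadjusted p under 0.05, and DESeq2 called 0 higher and 1 lower. A2M, the broad protease trap with the most counts, had 1250, 1366, 1384 and 1221 CPM in DMSO and 1200, 1097, 1085 and 1219 CPM in AF. All its AF libraries lay below all its DMSO libraries, AF replicate 4 only just below DMSO replicate 4. Its log2 fold change was -0.18 ± 0.08 (adjusted p = 0.119 in edgeR), and it was called without AF replicate 1 (adjusted p = 0.0425).

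The partners of the sheddases comprised iRhoms, tetraspanins of the TspanC8 group that steer ADAM10, and the convertases that cut off the inhibitory part of the precursors. Over all genes tested, 15.4% were called. All 13 were tested, with 0 called higher (2 at an unadjusted p under 0.05, and 1 by DESeq2) and 2 lower, and the median log2 fold change was -0.043. The 2 were TspanC8 tetraspanins, TSPAN33 (11.1 to 8.67 CPM, -0.36 ± 0.10, adjusted p = 0.0247 in edgeR) and TSPAN15 (14.97 to 12.3 CPM, -0.29 ± 0.09, adjusted p = 0.0385 in edgeR). TSPAN33 was not called without DMSO replicate 1 or 2 or AF replicate 3 (adjusted p = 0.0687 to 0.0824), nor TSPAN15 without DMSO replicate 2 or 3 or AF replicate 1 or 3 (adjusted p = 0.0776 to 0.106). The list's count of calls ran from 0 without AF replicate 3 to 4 without AF replicate 4, and was 0 with the summed libraries.

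Of 26 proteins that ADAM10 or ADAM17 are known to release, 21 were tested, 4 were called higher and 4 lower, and the median log2 fold change was -0.025. Over all genes tested, 7.62% were called higher and 7.81% lower. Among the growth factors, HBEGF had 30.6, 24.3, 21.6 and 28.9 CPM in DMSO and 42.3, 34.4, 35.1 and 38.8 in AF (0.51 ± 0.12, adjusted p = 0.00799 in edgeR). AREG, the low-level EGF-family ligand amphiregulin, rose from 0.691 ± 0.456 to 2.53 ± 0.695 CPM (1.89 ± 0.34, adjusted p = 0.00199 in edgeR). Among the receptors, MERTK, which serves the uptake of dead cells and is shed by ADAM17, rose from 153 ± 4.92 to 199.8 ± 19.6 CPM (0.39 ± 0.07, adjusted p = 0.00113 in edgeR). The AF libraries of these 3 genes all lay above the DMSO libraries, as for 9.86% of the genes tested.

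Of the substrates called lower, NOTCH1 fell from 323 ± 25.3 to 248 ± 30.5 CPM (-0.38 ± 0.08, adjusted p = 0.00715 in edgeR) and the lipid-sensing receptor TREM2 from 354 ± 34.8 to 277 ± 25.6 (-0.35 ± 0.08, adjusted p = 0.00972 in edgeR), where AF replicate 1 (313) lay above DMSO replicate 4 (308). SORL1, a sorting receptor, was called lower at -0.18 ± 0.05, and without any 1 library it remained called only when that was AF replicate 1. The fourth gene in each direction was named after its values were seen: APLP2, a relative of the amyloid precursor protein, was called higher at 0.23 ± 0.07 and the TNF receptor TNFRSF1A lower at -0.17 ± 0.05, and 6 of the 8 single omissions ended each of these calls. TNF itself, the defining substrate of ADAM17, had 4.55, 4.73, 5.07 and 4.71 CPM in DMSO and 4.35, 4.39, 4.23 and 3.39 in AF. Every AF library lay below every DMSO library, but TNF was not called (-0.22 ± 0.13, adjusted p = 0.280 in edgeR). TNF too was named outside the rule for named genes. Leaving out 1 library moved the list's 8 calls to 5 (without DMSO replicate 1, 2 or 3, or AF replicate 2) at the lowest and 12 (without AF replicate 1) at the highest.

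Of 14 genes that hold MMPs at the cell surface or activate them, 13 were tested, 3 were called higher and 2 lower, and the median log2 fold change was 0.038. The share called over all genes tested was 15.4%. PLAUR, the urokinase receptor that focuses plasmin formation at the membrane, had 139, 141, 134 and 130.1 CPM in DMSO and 192, 199, 187 and 167 in AF (0.45 ± 0.06, adjusted p = 0.000173 in edgeR). CD44, the hyaluronan receptor that docks MMP9, rose from 167 ± 5.07 to 203 ± 13.4 CPM (0.28 ± 0.06, adjusted p = 0.00364 in edgeR), and the integrin subunit ITGB1 from 175 ± 11.2 to 212 ± 19.1 (0.28 ± 0.07, adjusted p = 0.0130 in edgeR), a call lost without DMSO replicate 2 (adjusted p = 0.0543). The 2 called lower are serine proteases of myeloid granules that can activate MMP precursors. CTSG, cathepsin G, fell from 215, 212, 206 and 199 CPM in DMSO to 80.6, 92.0, 83.2 and 68.2 in AF (-1.36 ± 0.08, adjusted p = 7.0e-08 in edgeR), to below the lowest DMSO library in all 4. ELANE, neutrophil elastase, fell from 97.7 ± 13.04 to 70.5 ± 13.1 CPM (-0.47 ± 0.12, adjusted p = 0.0144 in edgeR), with overlapping groups and no call without DMSO replicate 2 (adjusted p = 0.0526) or 3 (adjusted p = 0.0505). With library totals alone 0 of the list were called higher.

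Among 23 matrix proteins that these enzymes cut, 8 were not tested for low counts, with COL1A2, LUM and BGN at 0. Of the 15 tested, 2 were called higher and 1 lower, and the median log2 fold change was 0.077. The share called over all genes tested was 15.4%. Both called higher were laminin chains: LAMC1 had 325, 342, 341 and 319 CPM in DMSO and 451, 489, 481 and 454 in AF (0.50 ± 0.06, adjusted p = 0.000116 in edgeR), and LAMB1 rose from 2.36 ± 0.372 to 5.10 ± 0.601 CPM (1.12 ± 0.15, adjusted p = 0.000246 in edgeR). COL3A1, a fibrillar collagen at the edge of detection, was called lower, at 0.931 ± 0.404 and 0.285 ± 0.126 CPM (-1.71 ± 0.41, adjusted p = 0.0108 in edgeR).

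**Figure D5:**
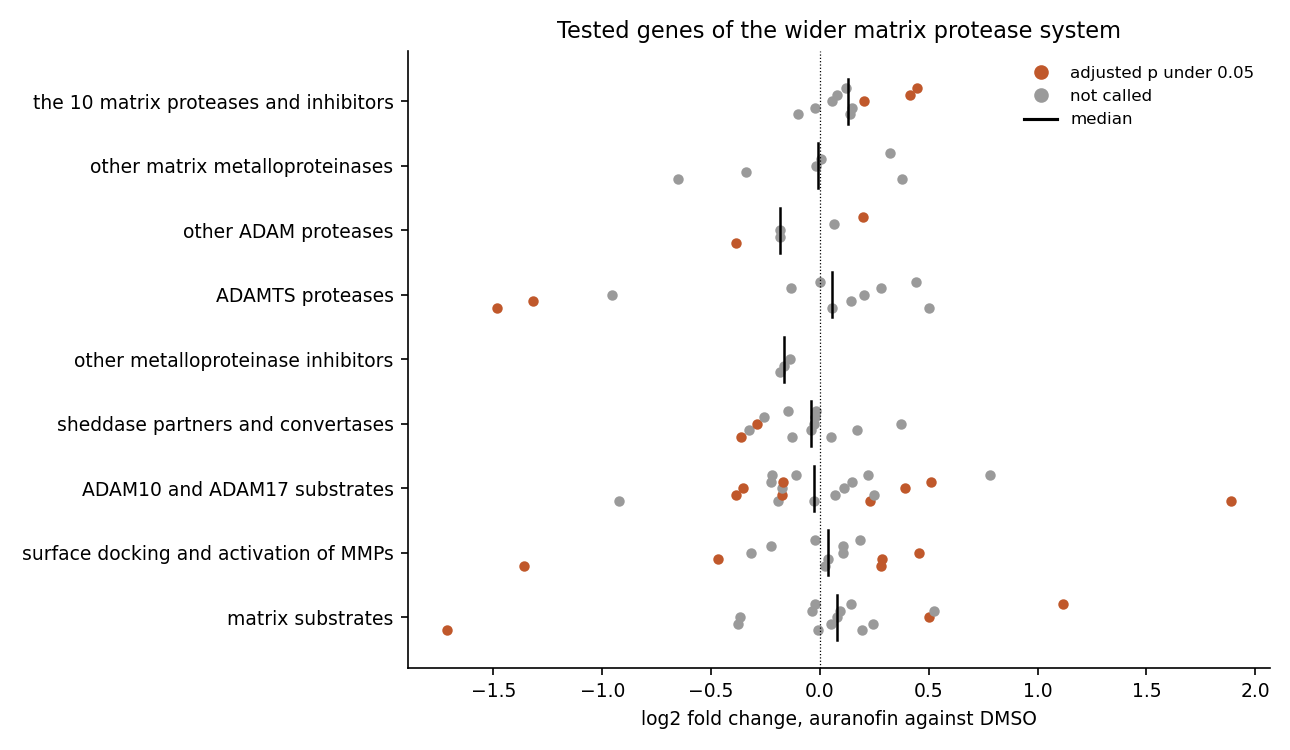
Log2 fold change, AF against DMSO (horizontal axis), of every tested gene of the 10 matrix proteases and inhibitors and of the 8 wider lists (rows), with 1 point per gene, called genes in orange and the median of each list as a bar. The medians lie between -0.18 (other ADAM proteases) and 0.13 (the 10 genes), and called genes lie on both sides of 0 in 4 of the lists.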

How the data were processed

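Poly-A RNA of 8 foam cell libraries, 4 with DMSO and 4 with AF, was sequenced from stranded libraries made from 250 ng of total RNA, per the labels' protocols. Whole-number counts that were not normalised are what the authors deposited. Per the submitters' processing notes, STAR 2.6.1d, Subread 1.6.3, featureCounts and the GRCh38 build were used. Which annotation and strand setting were used, and how multi-mapped reads were counted, is not given in the sources used here. The titles gave each library's group and replicate number.

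Tests on the deposited counts used edgeR 4.0.16 under R 4.3.3, with TMM factors, filterByExpr (17535 genes kept, all 10 members among them), glmQLFit and glmQLFTest, two-sided, AF against DMSO over all 8 libraries with no block (6 residual degrees of freedom, biological coefficient of variation 12.8%). CPM used TMM-scaled library totals. Positions and exon lengths came from GENCODE 29, which may differ from the authors' annotation. The steps were tested on simulated data. All 8 were kept as separate libraries. Samples of a group differed by more than counting noise, with chi-square per degree of freedom lowest at 2.96, for DMSO replicates 2 and 3. It was 612 to 752 for pairs with AF replicate 1. Such an excess cannot tell separate cultures from repeat libraries of the same culture. DMSO libraries that share a name stem gave 7.90 and 10.0, and DMSO replicates 1 and 4, which do not, gave 4.98.

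The members and the wider lists were chosen with earlier results of these data known. The named genes were all 10 members, up to 3 called genes per direction of each wider list by smallest p (or, with none called, the gene with most counts), and the 3 genes nearest to each of the 2 members with the smallest p, of which 1 is not reported here. Alternatives were DESeq2 1.42.0, other scalings and filters, a block for the replicate number or for the suffix of the library name, sums over libraries of a stem, ribosomal RNA entries left out, and each library left out in turn.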

Additional observations from a re-analysis of the deposited data

Results flagged for a closer look

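Of 42 groups of 4 libraries checked (20 of gene levels and 22 of ratios), 3 held a library whose gap to its nearest neighbour was large for the group's range (Dixon's criterion); chance flags about 1 in 20 groups. MMP14 was lowest in DMSO replicate 4, at 652 CPM against 718 to 729.7 in the other DMSO libraries. The ratio of MMP9 to MMP2 was highest in DMSO replicate 1, at 1.03 against 0.984 to 0.991. The ratio of MMP2 to TIMP2 was highest in AF replicate 2, at 0.514 against 0.485 to 0.489. None of these libraries turned the direction of MMP14 or MMP9 when left out.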

How the results depend on the processing

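MMP9 and MMP19 stayed called under every alternative except library totals alone, and ADAM17 was also lost without DMSO replicate 3, without AF replicate 3, and when library totals were used after ribosomal RNA entries had been left out (2 members called). Without 1 library at a time, 2 to 4 members were called, all higher, and 1616 to 2964 genes overall (768 to 1462 higher, 833 to 1502 lower; the lowest without DMSO replicate 2, with 1648 without DMSO replicate 3 and 1660 without AF replicate 3). With library totals alone, 883 genes were called, 183 higher and 700 lower (20.7% higher, against 49.4% in the main analysis), with 0 members; the log2 fold changes turned to -0.072 for MMP2, -6.1e-05 for MMP14, -0.034 for TIMP1, -0.10 for TIMP2 and -0.0078 for ADAM10. Relative to that setting's median of -0.15 these 5 were 0.07, 0.14, 0.11, 0.04 and 0.14. Chosen after seeing the data, library totals alone gave 2710 genes with ribosomal RNA entries left out and 2593 genes with 3 members without AF replicate 1. ADAM8 ranged from -0.12 to 0.073 without 1 library and was not tested at a mean of at least 5 CPM. MMP17 lay at -0.14 with library totals alone, -0.0084 with upper quartile factors, -0.0053 at a mean of at least 5 CPM, -0.00058 with ribosomal RNA entries left out, -0.016 with both library totals and those entries left out, -0.0040 with library totals without AF replicate 1, and -0.12 to 0.085 without 1 library. The cause of these changes was not tested. Depth limits ADAM8 (41 to 82 counts) and the scarce MMPs and ADAMTS genes most.

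The labels do not state whether replicate numbers pair the libraries. The deviations of same-numbered libraries correlated weakly, at 0.094, 0.129, 0.029 and 0.192. Of these, 3 of 4 correlated best with their own number, and replicate 3 reached 0.031 with another number. These values do not settle whether the libraries are paired. With the replicate block 4188 genes were called (2102 higher, 2086 lower), against 2705 with no block. The same 3 members were called, and MMP17 was at -0.0014.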
